A study of Mus musculus with 12 samples.

Results

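The genes described here are 100 gene names whose signal in fresh mouse kidney was highest, relative to both ends of the series, in mid-gestation (embryonic days E13.5 and E15.5). Each name was read from 1 probe, the brightest over 12 arrays, and its level is the log2 signal minus the 75th percentile of its array, so that 0 is the signal at that percentile. The score of a name was the lower of its E13.5 and E15.5 levels minus the higher of its E11.5 and birth (P0) levels. The 100 highest scores were taken from 34650 names, after names of unannotated probes, chromosomal loci, lincRNAs, histones, hemoglobins and the Wnt and Hes families had been left out and with both peak levels required to exceed -2. The members were thus chosen by the signal of these 4 kidney arrays, whose values are given as a description without a test. The arrays of E17.5 kidney, of cultured kidney and of organoids did not enter the score.

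The study followed kidney development and asked how mature reconstructed kidney organoids become in culture. Whole kidneys without ureter came from wild type ICR mice at 4 stages between E11.5 and E17.5 and at P0, with 1 array for each stage, and a further array came from E11.5 kidney of the same strain after 7 days of culture. Organoids joined nephron progenitors and ureteric bud, both made from mouse embryonic stem cells of B6 and 129SV background, with stromal progenitors taken from wild type ICR kidney at E11.5. They were measured straight after assembly (uncultured, n = 3) and after 7 days (cultured, n = 3), in both cases of culture on a transwell membrane with Matrigel and serum. The labels do not say how many animals were pooled or whether the 3 organoids of a group were grown apart. A p-value here therefore reflects only how much these arrays vary, and that variation may be technical. The organoid groups differ from every kidney group in strain as well as in cell source, and these cannot be told apart. The arrays measure bulk RNA, in which fewer cells of a type and less RNA per cell cannot be told apart.

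Between 50.6% and 54.3% of 55681 probes were well above background on the uncultured organoid arrays, and between 56.1% and 63.3% on the others. The 6 kidney arrays and uncultured organoids 1 and 2 lay on 1 slide, and uncultured organoid 3 and the cultured organoids on another. Of the 13 nephron progenitor markers, 12 or 13 were well above background on every array, Six2 and Eya1 among them. All 100 members were well above background at E13.5 and E15.5, and 84 on all 12 arrays. On E11.5 kidney 97 members were above background, on P0 kidney 100, on cultured kidney 97, on all 3 uncultured organoids 84 and on all 3 cultured organoids 97.

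The mouse kidney begins when a ureteric bud enters the metanephric mesenchyme. Nephron progenitors around each branching tip are then induced in repeated rounds to form renal vesicles and S-shaped bodies, while stroma, vessels and blood cells populate the organ. New nephrons form until shortly after birth, when the progenitors are used up.

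The sequences before the start of 5 members are shown because these members recur in the results below. Cited1 and Dkk1 stand for the nephron lineage, Foxa1 for epithelium, and Alas2 and Cpa3 for blood lineage genes that were below background in cultured organoids. Each is the 250 bases before the annotated start, 5′ to 3′ on the strand of the gene, from RefSeq on the build GRCm38.p6. Capitals mark AGATAA, the core read by GATA factors, TATAAA, the TATA box, and TGTTTAC, a forkhead core, on either strand, and none of these motifs overlapped another in the 5 sequences.
Alas2, chrX:150547167-150547416, plus strand: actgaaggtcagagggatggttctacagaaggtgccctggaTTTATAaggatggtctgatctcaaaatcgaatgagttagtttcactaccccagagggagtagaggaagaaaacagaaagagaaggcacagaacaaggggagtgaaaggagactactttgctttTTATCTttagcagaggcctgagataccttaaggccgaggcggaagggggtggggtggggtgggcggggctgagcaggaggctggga
Cpa3, chr3:20242182-20242431, minus strand: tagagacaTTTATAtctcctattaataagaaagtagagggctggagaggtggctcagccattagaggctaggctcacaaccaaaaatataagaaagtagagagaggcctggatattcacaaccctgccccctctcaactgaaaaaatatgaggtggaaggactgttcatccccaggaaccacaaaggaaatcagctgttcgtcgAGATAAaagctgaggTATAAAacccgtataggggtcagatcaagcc
Cited1, chrX:102252182-102252431, minus strand, the most upstream of 3 starts: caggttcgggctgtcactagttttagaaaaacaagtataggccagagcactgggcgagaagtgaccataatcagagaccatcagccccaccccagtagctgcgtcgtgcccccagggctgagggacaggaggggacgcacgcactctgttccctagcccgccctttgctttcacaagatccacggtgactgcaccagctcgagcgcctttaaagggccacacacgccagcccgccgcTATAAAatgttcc
Dkk1, chr19:30549497-30549746, minus strand: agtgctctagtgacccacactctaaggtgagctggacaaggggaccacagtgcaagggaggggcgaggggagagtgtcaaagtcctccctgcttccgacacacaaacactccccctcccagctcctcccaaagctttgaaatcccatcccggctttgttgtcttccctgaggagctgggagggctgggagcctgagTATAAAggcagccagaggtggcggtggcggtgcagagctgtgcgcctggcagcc
Foxa1, chr12:57546112-57546361, minus strand: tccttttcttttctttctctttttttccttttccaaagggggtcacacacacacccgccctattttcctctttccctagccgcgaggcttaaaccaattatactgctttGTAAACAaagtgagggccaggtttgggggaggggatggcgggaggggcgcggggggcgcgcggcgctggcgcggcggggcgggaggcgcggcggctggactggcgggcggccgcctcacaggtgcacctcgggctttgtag

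The shares of windows with a motif were not tested, and nothing is read from them. Of the members 67 had a sequence in the RefSeq table, with 78 starts. AGATAA stood in 6 of these 78 windows (7.69%), before Alas2, Cpa3, Grrp1, Klhl6, Wfikkn2 and Zdhhc22, and in 9.99% of all 32851 windows. TATAAA stood in 9 of the 78 member windows and in 12.4% of all, and TGTTTAC in 1 and in 3.17%. In Cpa3 the AGATAA began 46 bases and the TATAAA 31 bases before the start, and in Alas2 the AGATAA lay on the other strand 86 bases before it. A match is a stretch of letters and was not tested as a binding site.

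The peak was steep for few members and shallow for most. The score was at least 1, a 2-fold step on both sides, in 7 members, namely Sprr2g, Pop4, Krt36, Dync1i1, Ccbe1, Fabp7 and Slc7a3. It was 2.06 for Sprr2g at rank 1, 0.60 for Maneal at rank 50 and 0.448 for Cyp7b1, the last name taken, against 0.448 for Arhgap11a, the first name left out. Of 13170 names bright enough to be ranked 1943 (14.8%) had a score above 0. The opposite shape was about as common, since 107 of 12763 names had E13.5 and E15.5 both below E11.5 and P0 by at least the score of the last member. With 1 array for each stage, no error can be put on a score. On single steps, E13.5 was at least 2-fold above E11.5 in 50 members and below it in 0, where 5.30% and 8.93% of all names were, and P0 was at least 2-fold below E15.5 in 34 and above it in 0, against 6.60% and 8.29%, differences that the rule used.

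Most members were highest at E13.5, and some were still high or higher at E17.5, an array the rule did not use. The highest of the 5 stages was E13.5 in 65 members, E15.5 in 27 and E17.5 in 8, so the 8 were not at their peak at E13.5 or E15.5. The E17.5 level lay below both chosen stages in 77 members and between them in 15. It was above the higher of E11.5 and P0 in 87 members, against 683 of 1843 other names with a score above 0 (37.1%), whose scores are smaller. From E15.5 to E17.5 the median difference of the members was -0.31, against -0.07 for all 25119 names compared. In this step 6 members were at least 2-fold lower, where the share over all names was 2.71%, and 2 were at least 2-fold higher, against 5.04%. From P0 the E17.5 level differed by a median of 0.47, against 0.07 for all names, and 15 members were at least 2-fold above P0 and 0 below, against shares of 3.87% and 4.09%. Both steps share an array with the rule, so nothing is read from these shares.

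**Figure D1:**
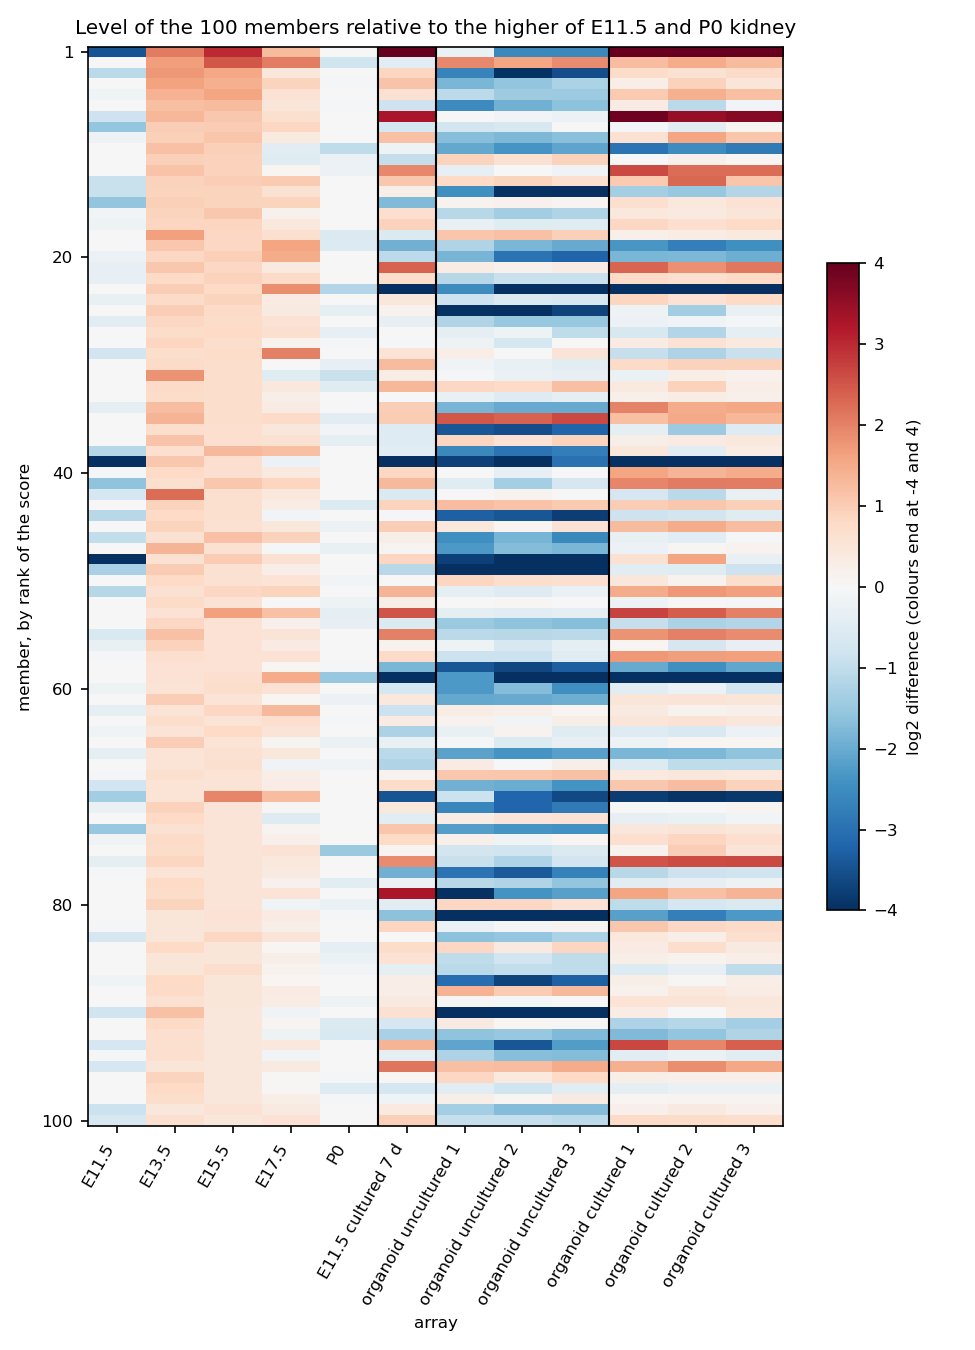
Level of each of the 100 members (rows, by rank of the score) on each of the 12 arrays (columns), as the log2 difference from the higher of the E11.5 and P0 levels, with colours ending at -4 and 4. E13.5 and E15.5 are red in every row because the rule requires it. E17.5 is red in 87 rows, while the uncultured organoids are blue in many rows and the cultured organoids red or pale in most.

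Most members rose when organoids were cultured. Cultured and uncultured organoids could be compared in 97 members, of which 61 rose and 16 fell (limma, adjusted p under 0.05, two-sided), where the background shares over all 21971 names were 24.6% for a rise and 42.0% for a fall. The median difference of the 97 was 1.16, against -0.20 for all names. Alas2, Cpa3 and NAP026524-1 were not well above background on every array of either group and were not tested. Of the 97, 13 passed the background filter through the cultured arrays alone and could hardly fall. Among the 84 members well above background on all 6 arrays, 48 rose and 16 fell, against shares of 21.7% and 46.6%. The arrays of the 2 groups did not overlap in 63 members that were higher after culture and in 17 that were lower, against 26.8% and 46.4% of all names. With slide as a block 58 rose and 14 fell, against 21.3% and 35.7%. With normexp background correction 61 rose and 22 fell, where 5061 and 11628 of all 21971 names did. The median of the members was then 0.47, against -0.22 for all names, so the size of the rise depends on how background is treated.

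**Figure D2:**
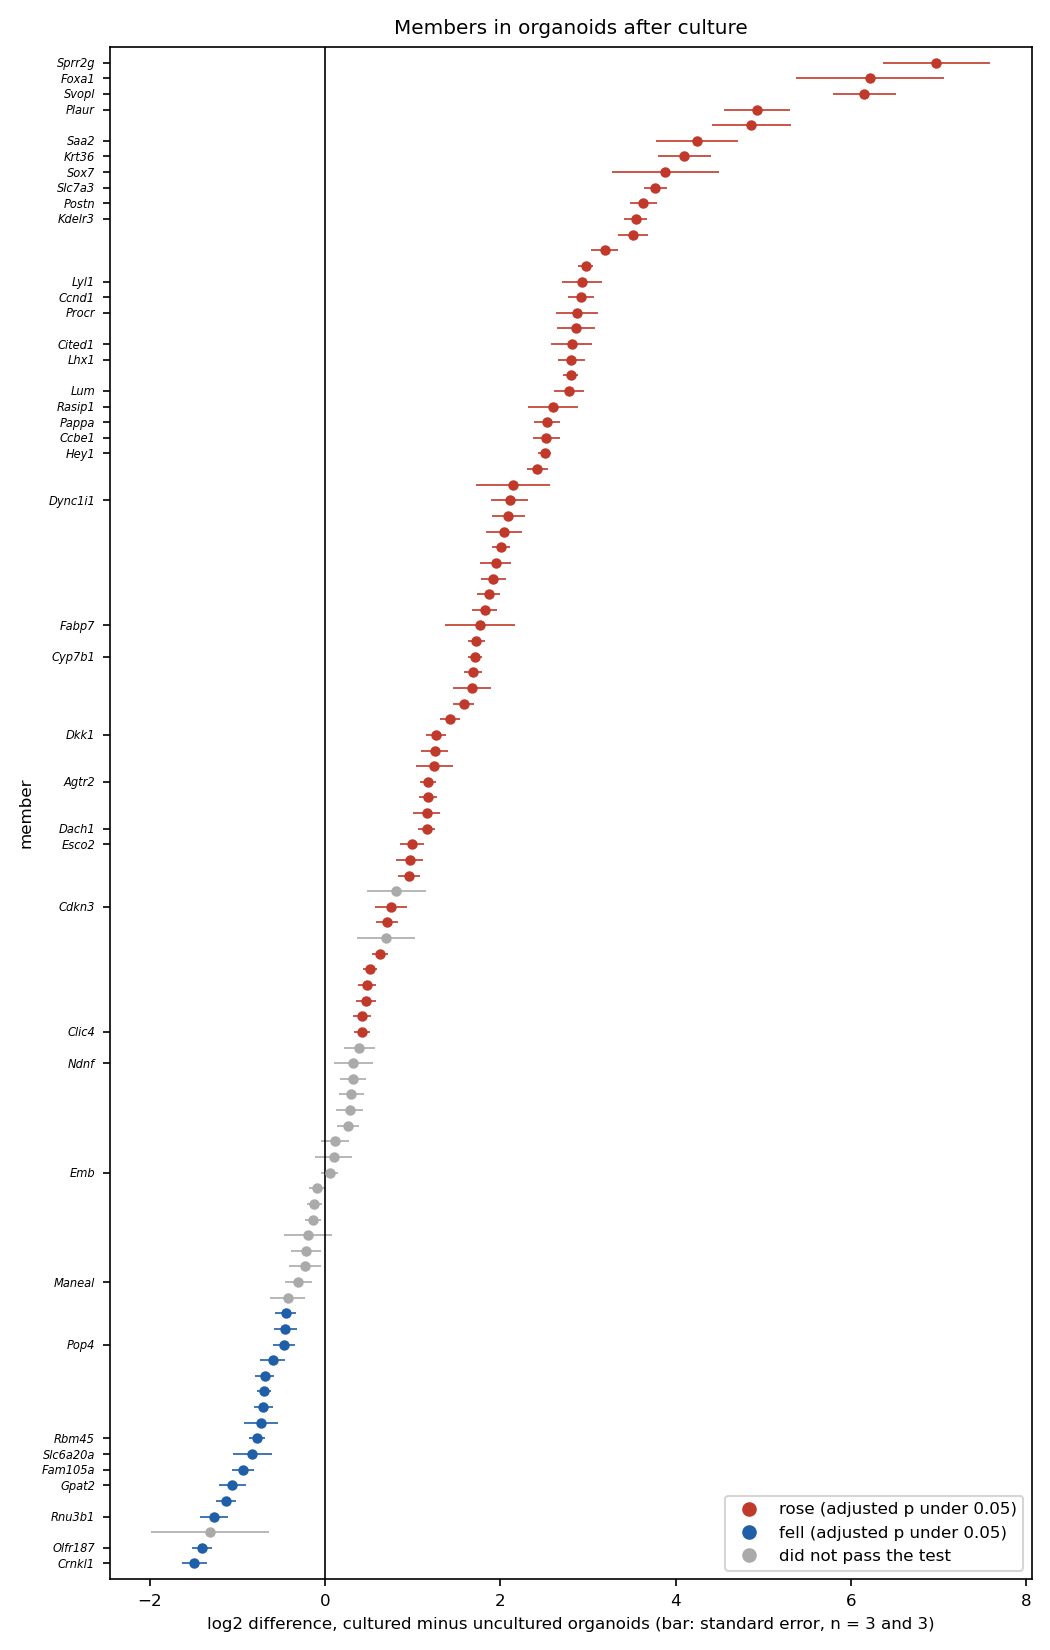
Log2 difference of 97 members between cultured and uncultured organoids (points, n = 3 and 3) with its standard error (bars), sorted by size. Red marks the 61 members that rose, blue the 16 that fell and grey the 20 that did not pass the test, and 40 members are labelled by name. Sprr2g, Foxa1 and Svopl stand at the top with differences above 6, and no fall exceeds 1.49.

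Members with roles in the nephron lineage rose together in cultured organoids. All 7 passed the test upward, with a median of 2.51, where 24.6% of all names and 61 of the 97 tested members rose. The 7 were Cited1, Lhx1, Dkk1, Ccnd1, Dach1, Agtr2 and Hey1. Agtr2 and Hey1 stand in none of the nephron marker lists, and the cells that express them here were not tested. Hey1 lies outside the rule for named genes and, like the other role groups below, was grouped after its values were seen. Between cultured organoids and the 1 cultured kidney array the median difference of the 7 was -0.16, and no agreement is read from it.

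Cited1 encodes a transcriptional co-regulator found in the least differentiated nephron progenitors. Its level was 3.76 at E11.5, 4.91 at E13.5, 5.06 at E15.5, 4.34 at E17.5 and 3.95 at P0, and 5.11 in cultured E11.5 kidney. It was 2.26, 2.16 and 2.26 on the uncultured organoid arrays and 4.55, 5.52 and 5.05 on the cultured ones, a difference of 2.81 ± 0.23 (SE, adjusted p = 0.000107, 7.03-fold). The cultured organoids thus lay on both sides of the E13.5 and E15.5 levels, while the uncultured ones lay below every kidney array. Cited1 was the only member among 13 nephron progenitor markers. In organoid culture 6 of those 13 rose and 5 fell, against 24.6% and 42.0% of all names.

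Lhx1, a transcription factor that appears in the renal vesicle, stood at 0.60, 2.53, 2.34, 1.62 and 1.72 from E11.5 to P0 and at 1.64 in cultured kidney. Uncultured organoids had -1.56, -1.71 and -2.06 and cultured ones 0.89, 0.99 and 1.23, which was 2.81 ± 0.16 higher (adjusted p = 2.12e-05) but below every kidney array from E13.5 on. Dkk1, a secreted inhibitor of Wnt signalling, had 0.75, 2.02, 1.95, 1.77 and 1.21 from E11.5 to P0 and 0.86 in cultured kidney. It went from -0.01, -0.30 and -0.31 to 0.96, 1.07 and 1.14 in organoids (1.26 ± 0.11, adjusted p = 0.000138), so that the cultured organoids stayed below the P0 kidney. Ccnd1, the cyclin that drives entry into the cell cycle, rose by 2.92 ± 0.15 (adjusted p = 1.47e-05), from 1.88 ± 0.28 to 4.81 ± 0.04 (SD, n = 3 each), where the kidney stages spanned 4.48 at E11.5 to 5.69 at E13.5.

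Lhx1, Dkk1 and Ccnd1 belong to a list of 24 early nephron markers. All 24 were bright enough to be ranked, and 11 had a score above 0, which used the same arrays as the rule. In organoid culture 22 of the 24 rose and 2 fell, with a median of 3.01, where 24.6% of all names rose and 42.0% fell. Lfng and Irx2, among those that rose, passed the background filter through the cultured arrays alone and could hardly fall. The Notch target Hes5, whose name the rule leaves out, had a score of 1.56, and Npy, a neuropeptide in the same list, missed the 100 with 0.44.

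Dach1, a transcription factor of progenitors and podocytes, changed less over the stages, with 4.02 at E11.5, 4.51 at E13.5, 4.52 at E15.5, 4.24 at E17.5 and 3.79 at P0. It rose in organoids from 3.09 ± 0.14 to 4.24 ± 0.07 (1.16 ± 0.10, adjusted p = 0.000118). Agtr2, the type 2 angiotensin II receptor, stood at 1.59 and 1.60 at E13.5 and E15.5 between 0.53 at E11.5 and 0.74 at P0, and reached 1.50 ± 0.09 in cultured organoids from 0.33 ± 0.10 (adjusted p = 9.23e-05). After culture Dach1 thus stood at its E17.5 level and Agtr2 just below its E15.5 level.

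All 3 epithelial members rose in organoid culture, where 24.6% of all names did. Each of them passed the background filter through the cultured arrays alone and could hardly fall. Sprr2g, of a family of small proline-rich proteins of stratified epithelium, was not well above background at E11.5 (-6.05) and stood at -0.52 at E13.5, 0.38 at E15.5, -1.31 at E17.5 and -2.59 at P0. Cultured kidney had 2.69, above all fresh stages. Uncultured organoids had -2.85, -5.16 and -5.16, of which 1 was well above background, and cultured ones 2.49, 2.52 and 2.74, a difference of 6.98 ± 0.61 (adjusted p = 0.000133). Both kinds of culture thus ended above the peak of the fresh kidney.

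Foxa1, a forkhead factor of ureteric and urothelial epithelium, was not well above background at E11.5 (-7.36) and had 0.43, 0.85, 0.43 and -0.17 at the later stages and 0.70 in cultured kidney. Its uncultured organoid values were -3.91, -6.78 and -6.57, with 1 array above background, and its cultured values 0.45, 1.39 and -0.46 (6.22 ± 0.84, adjusted p = 0.000832). Krt36, a hair-type keratin, had -3.65, -0.86, -1.04, -2.13 and -2.58 from E11.5 to P0. It was below background on all 3 uncultured organoids and was 17.1-fold higher by the measured values after culture, at -1.84, -1.98 and -1.81 (4.10 ± 0.30, adjusted p = 6.59e-05). Beside these values, the summed level of 18 collecting duct and urothelial markers, in multiples of the 75th percentile, was 36.0 to 49.7 in uncultured organoids and 196, 275 and 145 in cultured organoids 1, 2 and 3. Foxa1 was also highest in cultured organoid 2 and lowest in 3, and the part of these cells in its rise was not tested.

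**Figure D3:**
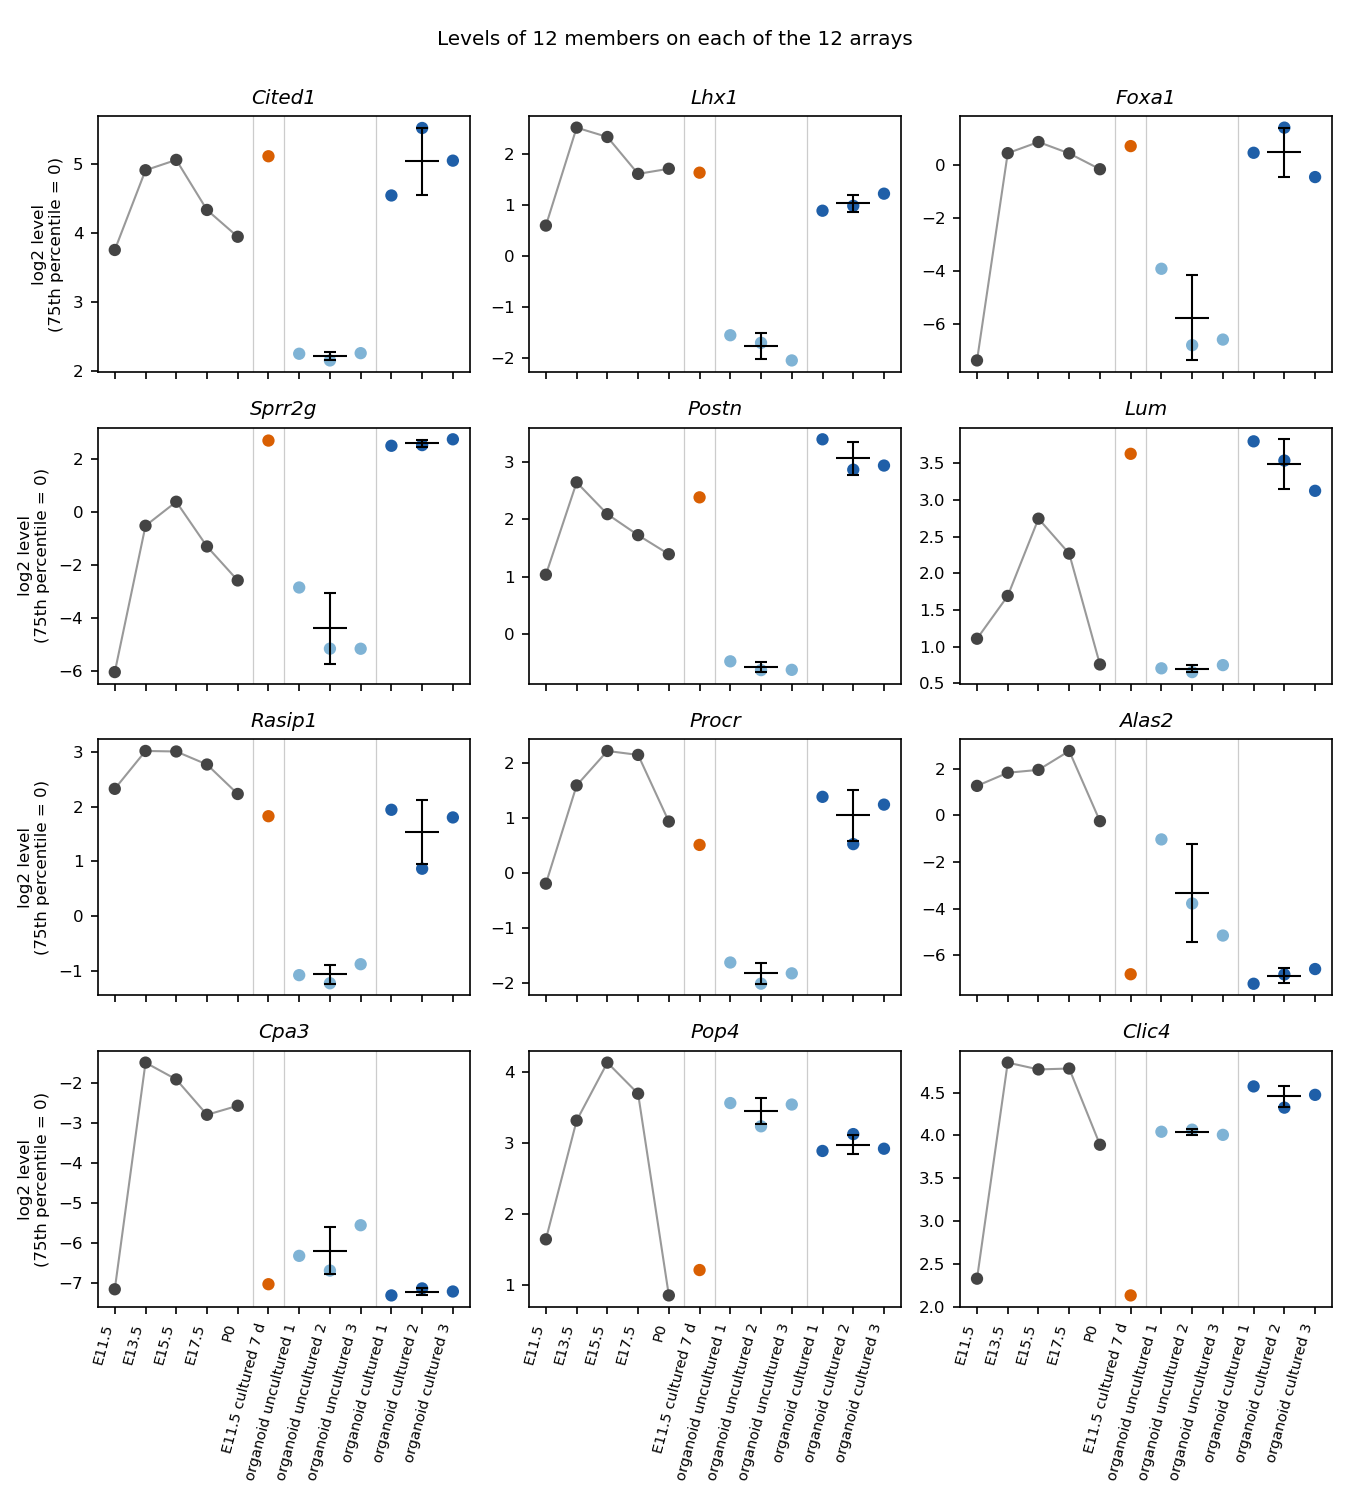
Levels of 12 members (panels) on each of the 12 arrays, as log2 signal with the 75th percentile of the array at 0. Dark grey points joined by a line are fresh kidneys, orange is cultured E11.5 kidney, light blue uncultured and dark blue cultured organoids, with black marks for the organoid means and SD (n = 3). Sprr2g, Postn and Lum end above the fresh kidney peak in cultured organoids, Cited1 and Foxa1 spread around it, Alas2 and Cpa3 lie at the bottom of the range in both cultures, and Pop4 and Clic4 are low in cultured kidney and high in all organoids.

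Most members of a group of secreted matrix proteins, related enzymes and the receptor Plaur rose in organoid culture, where 24.6% of all names did. Of 8 such members 6 passed the test upward in organoid culture and none downward, with a median of 2.66, and 5 of the 8 were higher in cultured organoids than in E17.5 kidney, where 12.6% of all names were. With slide as a block Postn (adjusted p = 0.0789), Lum (adjusted p = 0.15) and Ecm1 (adjusted p = 0.102) lost the latter call. Postn, or periostin, a matrix protein of mesenchyme, had 1.04, 2.64, 2.09, 1.73 and 1.39 from E11.5 to P0 and 2.38 in cultured kidney. It rose from -0.47, -0.62 and -0.62 to 3.39, 2.87 and 2.94 in organoids (3.63 ± 0.15, adjusted p = 8.84e-06), above the highest kidney stage. Lum, or lumican, a proteoglycan that binds collagen fibrils, peaked at E15.5 with 2.74, between 1.11 at E11.5 and 0.76 at P0, and reached 3.63 in cultured kidney and 3.80, 3.54 and 3.12 in cultured organoids, from 0.70 ± 0.05 before culture (2.79 ± 0.17, adjusted p = 3.16e-05).

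Postn and Lum are the members among 13 markers of medullary and differentiated stroma. Of these markers 11 rose and 1 fell in organoid culture, against 24.6% and 42.0% of all names. The summed level of that list was 39.4 to 41.9 in uncultured organoids, 168 to 175 in cultured ones and 163 in cultured kidney, against 39.9 at E11.5 and 117 at E17.5. The stromal cells of the organoids came from E11.5 kidney, and their part in these rises was not tested. Pappa, a protease that frees insulin-like growth factors from a binding protein, rose from -1.08 ± 0.17 to 1.45 ± 0.23 (2.54 ± 0.15, adjusted p = 2.63e-05) and was above its E13.5 level of 0.22. Plaur, the urokinase receptor, rose 30.4-fold, from -2.49, -3.81 and -2.63 to 2.28, 1.56 and 2.01 (4.93 ± 0.37, adjusted p = 7.39e-05), where the highest fresh kidney had 0.25. Ndnf, a secreted protein with neurotrophic activity, had -4.02 at E11.5, -1.49 at E13.5, -1.45 at E15.5 and -2.47 at P0, and differed by 0.32 ± 0.22 in organoids, which did not pass the test (adjusted p = 0.24).

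All 5 members with roles in vessels rose in organoid culture, with a median of 2.60, where 24.6% of all names rose. Sox7 among them passed the background filter through the cultured arrays alone. Against E17.5 kidney the 5 had a median difference of -1.10 in cultured organoids, against -0.01 for all names. Sox7, an endothelial transcription factor, had 0.54 at E13.5 and 0.34 at E15.5 between -0.43 at E11.5 and -0.78 at P0. Its uncultured organoid values were -4.37, -6.28 and -4.14, with 1 array above background, and its cultured values -0.63, -1.81 and -0.71 (3.88 ± 0.61, adjusted p = 0.00162). Ccbe1, a secreted factor of lymphatic growth with one of the 7 highest scores, stood at -2.09, -0.53, -0.35, -1.34 and -1.91 over the stages and rose in organoids from -3.22 ± 0.23 to -0.69 ± 0.19 (2.53 ± 0.15, adjusted p = 2.94e-05).

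Rasip1, which vessels need to open a lumen, and Procr, the endothelial protein C receptor, were picked after their values were seen. Rasip1 had 3.02 at E13.5 and 3.01 at E15.5 and rose from -1.08, -1.23 and -0.88 to 1.94, 0.86 and 1.80 (2.60 ± 0.29, adjusted p = 0.000341). Procr had 1.59 and 2.22 and rose from -1.83 ± 0.19 to 1.38, 0.52 and 1.24 (2.88 ± 0.24, adjusted p = 0.000104). Sox7, Rasip1 and Procr were all lowest in cultured organoid 2, whereas Ccbe1 was highest there. The summed level of 15 endothelial markers was 54.8, 39.7 and 57.6 in cultured organoids 1, 2 and 3, 25.7 to 29.2 in uncultured ones, 56.8 in cultured kidney and 65.7 to 110 in fresh kidney. Of 14 endothelial markers tested 12 rose and 1 fell, against 24.6% and 42.0% of all names, and their part in the 5 rises was not tested. Each of the 5 members also passed the test without cultured organoid 2.

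Members of the blood lineages behaved in different ways. Alas2, which makes heme in red cell precursors, had 1.26, 1.82, 1.94 and 2.75 from E11.5 to E17.5 and fell to -0.25 at P0, so that its peak was at E17.5. It was not well above background in cultured kidney (-6.81) or on any cultured organoid (-7.22, -6.82 and -6.59), and it was -1.04, -3.78 and -5.15 on the uncultured ones, with 2 above background. Against E17.5 kidney the cultured organoids were 794-fold lower by their measured values (-9.63 ± 1.42), a call that was lost with slide as a block (-6.89).

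Zdhhc22 and NAP026524-1 were also higher in fresh kidney from E13.5 to E17.5 than after either culture. Zdhhc22, of a family of palmitoyltransferases, went from -1.38 at E11.5 to 1.95 at E15.5 and 1.24 at E17.5, stood at -3.44 in cultured kidney, and was -0.86, -3.17 and -3.60 before and -3.78, -3.92 and -3.86 after organoid culture. NAP026524-1, a probe name with no gene in the RefSeq table, had 0.55, 0.34 and 1.42 at E13.5, E15.5 and E17.5 and was not well above background in cultured kidney (-6.36) or on any cultured organoid.

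Uncultured organoid 1 was above the others for Alas2, Zdhhc22 and NAP026524-1, but also for Sprr2g, Foxa1 and Slco4c1, which are not blood members. Among erythroid markers that are no members it was above them for Ahsp, a chaperone of alpha-globin (-1.53, -3.54 and -3.78). It was below them for Klf1 (-4.61, -3.94 and -4.18) and Epor (0.77, 0.99 and 0.98). Of 22 erythroid markers 17 to 22 were well above background on the fresh kidney arrays, 11 on cultured kidney, 11 or 12 on uncultured and 10 or 11 on cultured organoids. Their summed level was 244 to 329 in fresh and 328 in cultured kidney, 274 to 309 in uncultured and 240 to 274 in cultured organoids, a sum made mostly by Mfsd2b and Hemgn, which were bright on all 12 arrays. The part of red cells in these members' profiles was not tested.

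Cpa3, a protease of mast cells, was well above background only in fresh kidney from E13.5 on. It was not well above background at E11.5 (-7.16), stood at -1.50, -1.92, -2.80 and -2.58 from E13.5 to P0, and was not above background in cultured kidney (-7.03) or on any of the 6 organoid arrays. Cultured organoids were at least 20.7-fold below E17.5 kidney (-4.42 ± 0.40, adjusted p = 0.00131). Of the other mast cell proteases in its list, Mcpt4 and Cma1 were each well above background on 1 array, while Tpsb2 was above background on all 12, with -0.48 to -1.21. The summed level of the list of 15 granulocyte and mast cell markers went from 3.58 at E11.5 to 55.0 at P0, against 3.13 to 3.50 in uncultured and 6.44 to 9.41 in cultured organoids. Most of that sum at P0 was Hdc, an enzyme that makes histamine, with a level of 5.48 there and of 2.53, 2.10 and 2.83 in cultured organoids.

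Macrophage markers well above background numbered 4 of 14 on each uncultured organoid and 6, 11 and 10 on cultured organoids 1, 2 and 3, and their summed level was 4.23 to 4.87 before and 3.46, 6.58 and 4.42 after culture. Lyl1, Klhl6, Ada and Skap1, members expressed in blood cells, rose in organoid culture. Lyl1 and Klhl6 were well above background on 1 of 3 uncultured arrays and so passed the filter through the cultured ones. Ada lost its call with slide as a block (0.43, adjusted p = 0.0569), and Skap1 did so with the mean of its probes (-0.01, adjusted p = 0.95). Myb, a factor of immature blood cells, did not pass the test (0.11 ± 0.16, adjusted p = 0.553). Against E17.5 kidney, the 9 blood members had a median difference of -2.21 in cultured organoids. Among them Alas2 and Cpa3 passed the background filter through the E17.5 array alone and could hardly be higher in organoids.

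Members with roles in neurons and axon guidance rose in 5 of 9 cases and fell in none, where 24.6% of all names rose. Fabp7, a fatty acid binding protein of radial glia, had -1.57, -0.38, -0.29, -1.09 and -1.67 over the stages and -2.41 in cultured kidney. It went from -4.13, -3.51 and -3.22 to -1.24, -2.67 and -1.67 in organoids (1.76 ± 0.40, adjusted p = 0.0076), a call lost with normexp background correction (0.29, adjusted p = 0.0882) and with slide as a block (1.37, adjusted p = 0.0905). Dync1i1, a dynein chain of neurons, had -1.53, 0.08, -0.10, -0.64 and -1.59 over the stages and rose by 2.11 ± 0.21 (adjusted p = 0.000237) to -0.97 ± 0.34. Unc5a, a netrin receptor, differed by 0.69 ± 0.33 (adjusted p = 0.105), with -1.79, -0.55 and -1.73 on the cultured arrays.

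Most markers of neurons fell in organoid culture. Fabp7 was the only member among 10 markers of glia and neural crest, of which Foxd3 and Cdh19 were well above background on no array. The summed level of that list was 9.39 to 14.9 in fresh kidney, 10.5 to 12.9 in uncultured and 14.0 to 15.1 in cultured organoids. The list of 15 neuron markers held no member, and its summed level was 29.8 to 33.2 before and 5.56 to 8.36 after organoid culture. Of 14 of these markers tested 11 fell and 1 rose, against 42.0% and 24.6% of all names.

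Of 5 members of the cell cycle 3 rose in organoid culture, where 24.6% of all names did. Ccnd1 is given above, and Cdkn3 and Esco2 rose by 0.75 ± 0.18 (adjusted p = 0.01) and 0.99 ± 0.14 (adjusted p = 0.00102), the first of which was lost with slide as a block (adjusted p = 0.116). Kifc1 (0.32 ± 0.15, adjusted p = 0.102) and Pttg1 (0.26 ± 0.12, adjusted p = 0.105) did not pass the test. In the cell cycle list of 15 genes, which holds no member, 8 rose and 3 fell with a median of 0.42, against 24.6% and 42.0% of all names. A score above 0 was found in 3 of the 15.

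Transporters went both ways. Of 7 such members 5 rose and 2 fell in organoid culture, where 24.6% of all names rose and 42.0% fell. Svopl and Slco4c1, among the 5, passed the background filter through the cultured arrays alone. Slc7a3, which carries arginine and lysine, had -2.70, -0.54, -0.81, -1.25 and -1.88 over the stages, 1.39 in cultured kidney, and rose from -1.99 ± 0.12 to 1.78 ± 0.21 in organoids (3.77 ± 0.13, adjusted p = 4.96e-06, 13.6-fold). Both cultures therefore lay above the fresh kidney peak, as they did for Sprr2g. Svopl, related to a synaptic vesicle protein, was below background on all uncultured organoids and 71.2-fold higher by the measured values after culture, at 0.92, 0.66 and 1.05 (6.15 ± 0.36, adjusted p = 2.63e-05), where E13.5 kidney had 1.80. The second probe of Svopl went the other way, from -1.24, -1.01 and -1.36 before to -2.71, -2.73 and -2.66 after culture, so its direction depends on the probe.

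Slc6a20a, which carries proline, had -0.49, 0.58, 0.33, 1.09 and -1.05 over the stages, with its highest level at E17.5. It fell in organoids from -1.69, -2.33 and -2.50 to -2.84, -3.23 and -2.94 (-0.83 ± 0.23, adjusted p = 0.0161), near the -2.40 of cultured kidney, and the call was lost with slide as a block (-0.51, adjusted p = 0.179) and without cultured organoid 2 (adjusted p = 0.0535). Slco4c1, an organic anion transporter of the tubule, was below background on all uncultured organoids and at least 4.16-fold higher after culture (2.14 ± 0.42, adjusted p = 0.00419), yet it was lower by normexp background correction (-0.19, adjusted p = 0.0231), so its direction rests on how background is treated. Saa2, an acute phase protein, was -6.11, -4.52 and -4.28 before, with 1 array above background, and -0.53, -0.91 and -0.75 after organoid culture (4.24 ± 0.47, adjusted p = 0.000338), with 1.15 in cultured kidney and at most -1.39 in fresh kidney.

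Falls among the members were fewer than rises. Of 16 that fell 5 did so by at least 2-fold, namely Crnkl1, Olfr187, Rnu3b1, ENSMUST00000078267 and Gpat2, while 50 of the 61 that rose did. Over all 21971 names 2201 fell and 3073 rose by as much, and the rises include members that passed the filter only through the cultured arrays. Of 7 members with roles in RNA or DNA handling, grouped after their values were seen, 6 fell and none rose, where 42.0% of all names fell. Crnkl1, a splicing factor, went from -1.59, -1.60 and -1.84 to -3.44, -3.08 and -2.99 (-1.49 ± 0.14, adjusted p = 0.000199). Rnu3b1, a U3 small nucleolar RNA that guides cutting of ribosomal RNA, had 0.02, 1.51, 1.53, 2.82 and 0.80 over the stages and went from 1.05 ± 0.26 to -0.22 ± 0.18 (-1.27 ± 0.16, adjusted p = 0.000614), against 1.35 in cultured kidney.

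The remaining large falls were in members of other kinds. Olfr187, named as an olfactory receptor, fell by 1.41 (adjusted p = 8.86e-05) from -1.28 ± 0.16, and Gpat2, an acyltransferase known from the testis, fell by 1.06 (adjusted p = 0.00126) from -1.92 ± 0.16. ENSMUST00000078267, a transcript with no gene name here, had 5.08, 4.96 and 5.24 before culture, above every kidney stage (2.20 to 3.98), and 3.81, 4.13 and 3.95 after it (-1.13 ± 0.12, adjusted p = 0.000278). Fam105a, called Otulinl in RefSeq, fell by 0.94 (adjusted p = 0.000847).

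The remaining 38 members fall in none of these role groups. Of 37 tested 21 rose and 8 fell in organoid culture, with a median of 0.51, where 24.6% of all names rose and 42.0% fell. The largest rises among them, picked after their values were seen, were those of Kdelr3 (3.54 ± 0.13, adjusted p = 6e-06), Smpdl3b (11.4-fold, with no uncultured array above background) and Dapp1 (3.19 ± 0.16), an adaptor of lymphocyte signalling. NAP111644-1, a probe name among the 20 highest scores, rose from 3.81 ± 0.14 to 5.49 ± 0.05, and Cyp7b1, a hydroxylase of oxysterols and the last name taken, rose by 1.71 ± 0.08. Emb, a partner of monocarboxylate transporters with its peak at E17.5 (2.79), stood at 1.69 ± 0.10 before and 1.74 ± 0.10 after culture.

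Pop4, and Clic4 on its chosen probe, were higher in all organoids than in kidney at E11.5, at P0 and after culture. Pop4, a subunit of RNase P, had 1.65, 3.32, 4.14, 3.70 and 0.86 over the stages and 1.22 in cultured kidney. Its organoid levels were 3.57, 3.24 and 3.55 before and 2.89, 3.13 and 2.92 after culture, all above the 3 low kidney arrays, and the fall of 0.47 ± 0.12 (adjusted p = 0.0144) was lost without cultured organoid 1 (adjusted p = 0.0546) or 3 (adjusted p = 0.0514). Clic4, a chloride intracellular channel protein, had 2.33, 4.85, 4.77, 4.78 and 3.89 and 2.13 in cultured kidney, against 4.04 ± 0.03 before and 4.46 ± 0.12 after organoid culture. On these probes the E11.5, P0 and cultured kidney arrays lay below every organoid array. The second probe of Clic4 did not show this, since the organoids had -0.66 to -1.02 on it and E11.5, P0 and cultured kidney -0.53, -0.65 and -0.99.

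Rbm45, an RNA-binding protein, and Recql, a DNA helicase, were lower after organoid culture, by 0.78 ± 0.09 (adjusted p = 0.000496) and 0.71 ± 0.11 (adjusted p = 0.00149), yet above cultured kidney on the chosen probes. Rbm45 had 0.77, 2.40, 1.60, 1.42 and 0.20 over the stages and 0.18 in cultured kidney, with 1.87, 1.93 and 1.73 before and 0.97, 1.08 and 1.15 after organoid culture. On the second probe of Rbm45 the cultured organoids lay below cultured kidney instead, with 0.69, 0.68 and 0.84 against 1.16.

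Few members passed the test between cultured organoids and cultured kidney, and a member that did not pass may still differ. With 1 cultured kidney array, which the fit assumes to vary like organoid replicates, 6 of 100 members were higher and 2 lower (limma, adjusted p under 0.05, two-sided), where the shares over 24791 names were 2.40% and 2.37%. The median difference was -0.03, the same as for all names. The 6 higher members were Clic4 (2.32 ± 0.13, adjusted p = 0.00114), Pop4 (1.77 ± 0.18, adjusted p = 0.00769), Emb, Recql, Fam114a1 and Rbm45, with differences of 1.09, 1.05, 0.93 and 0.88 for the last 4. One of the 2 lower members was Rnu3b1 (-1.57 ± 0.23, adjusted p = 0.0243).

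Of these 8 calls Clic4 alone held with slide as a block, and it rests on the chosen probe, since the second had -0.66, -1.02 and -0.79 in cultured organoids and -0.99 in cultured kidney. The call of Rbm45 was lost with the mean of its probes (0.23, adjusted p = 0.302). In the limma fit with the slide block 1 member was higher and 0 lower, where the shares over all names were 0.343% and 0.331%, and 10 were higher and 8 lower at an unadjusted p under 0.05. Without cultured organoid 1, 2 or 3 the higher members numbered 2, 3 and 3, and 1 member was lower in each case.

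Kidney culture could be set beside organoid culture only from fresh E11.5 kidney, an array of the rule. Of 99 members compared 32 were at least 2-fold higher in cultured than in fresh E11.5 kidney and 10 at least 2-fold lower, against 11.3% and 8.40% of 24171 names. Of the 61 members that rose in organoids 49 were higher in cultured than in fresh kidney, and of the 16 that fell 10 were lower. Nothing is read from these shares and counts, because the rule favours a low E11.5 level. Grrp1, Klhl6 and Lyl1, chosen after their values were seen, rose in organoids by 1.25, 2.09 and 2.93 but stood at -0.01, -3.49 and -0.75 in cultured kidney against 1.81, -1.64 and 0.91 in fresh E11.5 kidney.

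**Figure D4:**
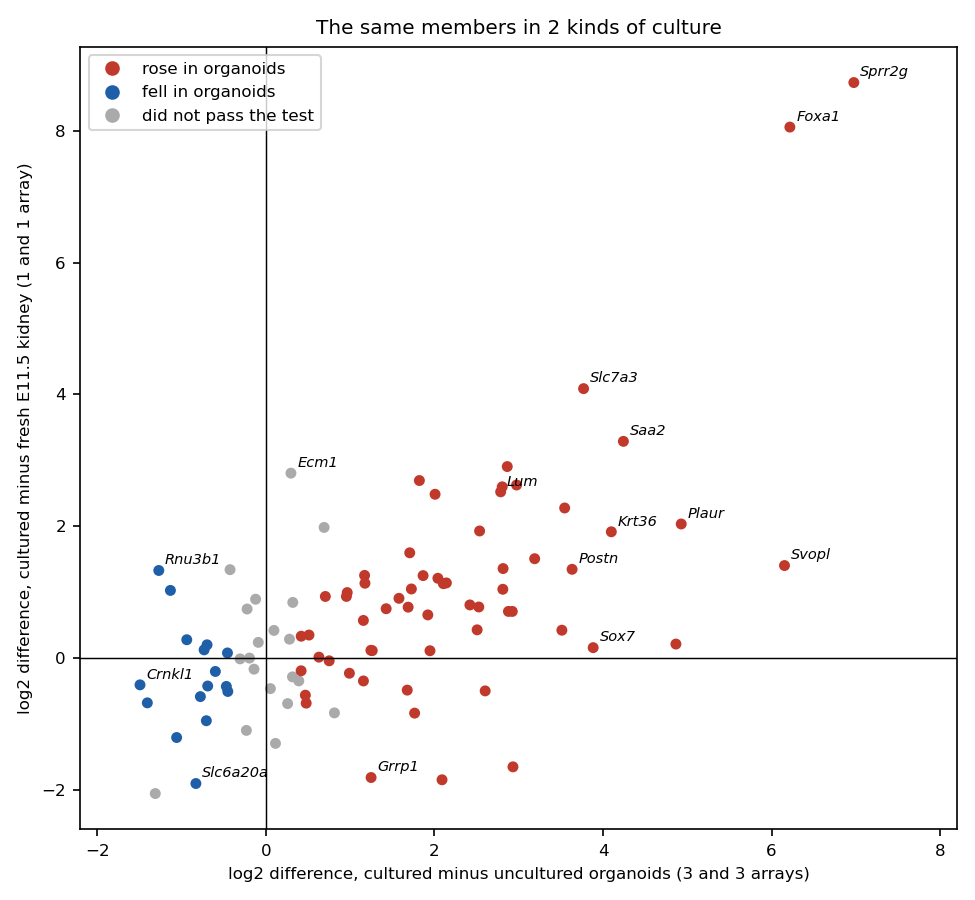
Log2 difference of 97 members between cultured and uncultured organoids (horizontal axis, 3 and 3 arrays) and between cultured and fresh E11.5 kidney (vertical axis, 1 and 1 array, the fresh one used by the rule). Colours mark the organoid test. Sprr2g and Foxa1 are far up on both axes, while Sox7 and Svopl are far up in organoids and less so in kidney, and Grrp1 is up in organoids and down in kidney.

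Few members were at the level of the mid-gestation kidney on every cultured organoid. In 24 members all 3 cultured organoids were at or above the lower of E13.5 and E15.5, where this held for 46.1% of all 13170 ranked names. Cultured kidney was at or above it in 32 members (49.6% of all names), and those 32 included all 24, while 60 members were below it in both. The uncultured organoids were all below it in 86 members (28.4% of all names). The rule chose high E13.5 and E15.5 levels, so nothing is read from these shares.

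Against E17.5 kidney, also 1 array and outside the rule, the members split evenly. In cultured organoids 19 were higher and 21 lower (limma, adjusted p under 0.05, two-sided), where the shares over 24791 names were 12.6% and 12%, and the median was -0.04 against -0.01. The 5 largest upward differences that passed the test were Sprr2g (3.89 ± 0.90, adjusted p = 0.0277), Slc7a3 (3.03 ± 0.19, adjusted p = 0.000414), Pappa (2.31 ± 0.22, adjusted p = 0.00142), Kdelr3 and Wfikkn2. Kdelr3, a receptor that returns proteins to the endoplasmic reticulum, stood at 2.94, 3.02 and 3.04 against 0.84 (2.16 ± 0.19, adjusted p = 0.00118), and Wfikkn2, which binds growth factors of the myostatin group, at -0.36, -0.87 and -0.57 against -2.29 (1.69 ± 0.20, adjusted p = 0.00327).

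The 5 largest downward that passed were Alas2 and Cpa3, given above, NAP026524-1 (218-fold by measured values), Zdhhc22 (-5.10 ± 0.99) and Slc6a20a (-4.09 ± 0.33). Alas2, Cpa3 and NAP026524-1 passed the background filter through the E17.5 array alone and could hardly be higher in organoids. With slide as a block 7 were higher and 10 lower, against 3.86% and 4.95% of all names, and Sprr2g (adjusted p = 0.0808), NAP026524-1 (adjusted p = 0.0778) and Zdhhc22 (adjusted p = 0.162) lost their calls. Without cultured organoid 2 or 3 the higher members numbered 11 and 12, and Sprr2g lost its call when any 1 cultured organoid was left out (adjusted p = 0.0626 to 0.0656).

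A second probe often, but not always, showed the mid-gestation peak. Beside the chosen probe 34 members had 42 other probes, and 33 of these, of 31 members, were well above background at E13.5 and E15.5. Of the 33 probes 23, of 22 members, had a score above 0 (69.7%), against 749 of 5442 (13.8%) for such probes of names ranked lower. These scores come from the same kidney arrays that the rule used, so nothing is read from these shares. Lhx1, Krt36, Dync1i1 and Recql kept the shape on a second probe, with scores of 0.63, 1.67, 1.34 and 0.53. The probes of Dync1i1 share 18 bases. A further probe of Krt36, not well above background at both E13.5 and E15.5, had a score of -0.43.

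Rbm45 did not keep the shape, although its 2 probes share 37 bases. The chosen probe lies at chr2:76221740-76221799 and the other at chr2:76221763-76221822 on the plus strand of mm9, and the other was highest at E11.5 (1.51) and had 1.21 at E13.5 and 1.15 at E15.5, with a score of -0.36. In organoid culture both probes were lower, by 0.78 and 0.98. The second probe of Clic4 had a score of 0.13 and spanned -0.30 to -0.65 over the stages, against 2.33 to 4.85 on the chosen probe. The stage profiles of Rbm45 and Clic4 thus depend on the probe.

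The choice of the 100 depended in part on the processing. The same rule took 80 of the 100 after normexp background correction, 88 after quantile normalization, 77 with arrays scaled to their median, 99 from the authors' own value table and 79 with the mean of all probes. All 100 kept a score above 0 under the first 4 of these settings and 87 under the last.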

How the data were processed

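RNA was labelled in 1 colour and hybridised to Agilent arrays. The deposited scanner files hold the intensity of 62976 spots per array, which was background-subtracted and scaled by the authors with Feature Extraction, version 11.5.1.1 per the file headers and 10.7.3.1 per the submitters' processing notes. The authors also deposited a table of log2 values, which equals the log2 of that intensity minus 1 constant per array and was used as an alternative. No per-sample column was left unused. The array design follows the build mm9, per the file headers.

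Outlier spots (108 to 206 per array) were left out, spots of a probe averaged as log2, and the 75th percentile over probes subtracted. No spot was saturated. limma 3.58.1 (R 4.3.3) compared cultured with uncultured organoids on 6 arrays, and cultured organoids with cultured kidney and E17.5 kidney in 1 fit of 8 arrays, with eBayes and Benjamini-Hochberg adjustment over all names. A name was tested if at least 1 group had a signal well above background on all of its arrays. For a group with no array above background, each array was set to the lowest signal of any probe well above background, or to its own where higher. The fold is given as at least the resulting value where this lowered it, and is otherwise the measured fold. Neither bounds the error of the estimate. The number of arrays limits the precision. The fits were tested on simulated data.

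The members, lists and tests were chosen with earlier results of these data known, and the role groups after the values were seen. Named were the 20 highest scores, members in the fixed lists, the 8 largest changes each way in organoid culture, 5 each way against cultured and E17.5 kidney, and the names on both sides of the limit; others were chosen after their values were seen. Some genes that the rule names are not reported here. Alternatives were normexp correction with an offset of 50, quantile and median scaling, the authors' table, other background filters, trend and robust moderation, the mean of probes, a 2-fold threshold, slide or replicate number as a block, and leaving out each organoid array. Of 100 member names 95 matched RefSeq. Python 3.11.15, pandas 2.3.3 and matplotlib 3.10.9 were used.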

Additional observations from a re-analysis of the deposited data

How the results depend on the processing

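For organoid culture, the 77 called members gave 1296 values under the alternatives, of which 1254 kept direction and threshold and 39 kept direction only, and 51 members kept both in every setting. Direction reversed for Slco4c1 (-0.19) and Prkch (-0.0064) with normexp correction and for Skap1 (-0.0118) with the mean of probes; the cause was not tested. A 2-fold threshold left 5 members lower. Leaving out 1 array gave 61 to 63 higher and 13 to 16 lower. The replicate numbers did not pair the samples, as same-numbered arrays correlated at -0.057, -0.220 and -0.050 in their deviations over 19385 names, and with the replicate block 61 members were higher and 16 lower, which changed no call.

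Against cultured kidney, normexp correction gave 13 higher and 10 lower and the slide block 1 and 0; 4 were lower with a filter on every array or with trend and robust moderation. Leaving out 1 array gave 2 to 8 higher and 1 to 3 lower. Against E17.5 kidney the slide block gave 7 higher and 10 lower, and leaving out 1 array 11 to 20 and 16 to 22. Of 40 members called there 14 kept their call in every setting, and of 8 against cultured kidney 1 did. Kidney groups with 1 array, weak signal in uncultured organoids and slides that nearly coincide with organoid culture limit these comparisons; their parts were not tested.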
